A study of Mus musculus with 9 samples.

Results

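The chaperone genes described here encode the heat shock proteins, the DnaJ co-chaperones and the subunits of the CCT chaperonin. They were measured by RNA sequencing in regulatory T (Treg) cells from mouse spleen. Members were the rows of the count table whose symbol begins with Hsp90, Hspa, Hspb, Hspd, Hspe or Hsph, Dnaja, Dnajb or Dnajc, or Cct2 to Cct8 with a number, together with Tcp1. Of 54232 rows, 82 matched, and the 70 with at least 10 counts in at least 3 libraries were kept. The 12 that missed this minimum were Hspb1, Hspb2, Hspb3, Hspb7, Hspb8, Hspa1l, Dnajb7, Dnajb8, Dnajc5b, Dnajc5g, Dnajc22 and Cct8l1, of which 4 were at 0 in every library. Just inside the minimum lay Dnajb3, with 10 or more counts in 3 libraries, and just outside it Hspb1, with 10 or more in 2. Dnajb3 was too low for the filter of the test across genes, so 69 members were tested.

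The libraries formed 3 groups of 3. The first came from mice labelled Usp21/Usp22 Treg KO (dKO below), the next from mice labelled Usp21 Treg KO (Usp21 KO below), and the last from mice labelled WT. Usp21 and Usp22 are deubiquitinases, and Usp22 is the catalytic subunit of the deubiquitinase module of the SAGA coactivator. In every group naive Treg cells were sorted for YFP, reported from Foxp3, whose product is the lineage-defining factor of these cells, and no treatment was given. The labels name neither the Cre driver, the deleted exons, the strain, the age nor the litters, and no group lacked Usp22 alone. They number the samples as separate biological samples of each genotype, and p-values set differences between groups against the spread between those samples.

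Chaperones bind unfolded segments of other proteins. Hsp70 proteins do so in cycles driven by ATP, DnaJ proteins (J proteins, or Hsp40) deliver clients and trigger the ATPase of Hsp70, and Hsp110 proteins exchange its nucleotide. Hsp90 proteins act on near-native clients such as kinases and steroid receptors, and the ring-shaped CCT complex, also called TRiC, folds actin and tubulin. Some cytosolic chaperone genes are induced by heat shock factor 1 when proteins unfold, also during the handling of cells, whereas others are expressed constitutively and at a high level in dividing lymphocytes. The endoplasmic reticulum and mitochondria each hold their own set.

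The members were divided by location and mode of expression. The classes held 7 heat-inducible cytosolic, 12 constitutive cytosolic, 10 endoplasmic reticulum, 8 mitochondrial and 7 CCT genes, and 26 others. Heat shock factor binds inverted repeats of GAA, and promoter sequences are shown so that matches to this repeat can be set beside the classes. The 150 bases upstream of the start sites of Hspa1a (chr17:34972157-34972306) and Hspa1b (chr17:34959239-34959388), both on the minus strand of GRCm38.p6, are from RefSeq and are written 5′ to 3′ as the gene is read. Capitals mark GAA and TTC units of the repeat. The last sequence is a 30-base stretch of the plus strand (chr1:55088053-55088082). It lies between the start site of Hspe1 and a start site of Hspd1, which are divergent and 216 bases apart. Another RefSeq window of Hspd1 (chr1:55088194-55088493, minus strand) does not contain the stretch, and the annotated genes overlap on opposite strands.
Hspa1a: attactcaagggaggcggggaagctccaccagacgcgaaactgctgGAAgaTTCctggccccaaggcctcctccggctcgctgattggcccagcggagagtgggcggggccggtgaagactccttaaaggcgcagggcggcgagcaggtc
Hspa1b: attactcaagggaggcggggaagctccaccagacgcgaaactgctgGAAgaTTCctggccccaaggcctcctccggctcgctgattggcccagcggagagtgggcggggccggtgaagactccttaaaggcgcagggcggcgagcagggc
Hspd1 and Hspe1: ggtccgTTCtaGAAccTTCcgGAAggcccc

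The Hspa1a and Hspa1b stretches were identical at 149 of 150 positions and held 1 pair of units each, whereas the Hspd1 and Hspe1 stretch held 4 units in a row. A pair was searched as GAANNTTC or TTCNNGAA and a triple as GAANNTTCNNGAA or TTCNNGAANNTTC, on both strands, in RefSeq windows from 250 bases before to 50 bases after each start site. A triple contains a pair, so the searches overlap. Triples occurred in 0.603% of the 32851 windows in the table and in those of 4 of the 57 members with a window, namely Hspd1, Hspe1, Hsph1 and Dnajb6. By gene, that was 1 of 6 heat-inducible, 1 of 8 constitutive cytosolic and 2 of 5 mitochondrial members, against 0.662% of all genes. Pairs occurred for 17.0% of all genes in the table, for 5 of 6 heat-inducible members and for 1 of 8 constitutive cytosolic members. They also occurred for 2 of 5 mitochondrial, 2 of 6 CCT, 1 of 9 endoplasmic reticulum and 3 of 23 other members. By window, 6 of 11 for heat-inducible members held a pair, against 15.1% of all windows. Members not in the table included the heat-inducible gene Hsp90aa1, the constitutive genes Hspa8, Hsp90ab1, Dnajc2 and Dnajc5, and the CCT gene Cct4. These are matches of letters, and no binding was measured.

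The libraries held between 18067377 and 40334577 counts each, and levels are given as CPM, the count of a gene scaled to a common library size, after TMM scaling of library sizes. Usp21 averaged 27.9 ± 1.59 CPM in dKO, 25.4 ± 2.49 CPM in Usp21 KO and 63.3 ± 2.72 CPM in WT, and Usp22 averaged 25.4 ± 3.58 CPM in dKO, 73.8 ± 8.64 CPM in Usp21 KO and 71.1 ± 1.74 CPM in WT (SD, n = 3 each). Foxp3 was present in all libraries, at 333 ± 36.5 CPM in dKO, 730.0 ± 85.3 CPM in Usp21 KO and 660 ± 34.2 CPM in WT (SD, n = 3 each). Foxp3 was 1 of 6 listed Treg genes, of which 3 were lower in dKO than in WT at an adjusted p under 0.05 in edgeR. Of all genes tested 2.77% were. The summed level of the 6 was 1882 to 2184 CPM in dKO, 2632 to 2880 CPM in Usp21 KO and 2566 to 2849 CPM in WT. Other lists also differed between the groups. At an adjusted p under 0.05 in edgeR, 3.01% of all genes tested were higher in dKO than in WT, and 8 of 10 proliferation genes were. The summed level of the proliferation genes was 774 to 877 CPM in dKO, 479 to 794 CPM in Usp21 KO and 352 to 435 CPM in WT. Of 8 myeloid genes, 2 (Ltf and Ngp) passed, and their summed level was 330.4 to 814 CPM in dKO, 76.4 to 220.0 CPM in Usp21 KO and 77.3 to 247 CPM in WT. Of 7 tested erythroid and platelet genes, 2 (Hba-a2 and Alas2) were higher in dKO than in WT, with a summed level of 66.6 to 130.4 CPM in dKO, 51.9 to 92.7 CPM in Usp21 KO and 34.8 to 57.2 CPM in WT. Of 7 CD8 T and NK genes 1 (Gzma) was higher, with a summed level of 74.0 to 77.5 CPM in dKO, 44.5 to 102 CPM in Usp21 KO and 59.9 to 75.5 CPM in WT. Of 7 B and plasma cell genes 0 passed, with 124.5 to 165 CPM in dKO, 43.3 to 149 CPM in Usp21 KO and 29.6 to 84.6 CPM in WT. No gene of these lists was at 0 in every library. The part of these lists in the chaperone results was not tested, and in sorted bulk RNA fewer cells of a type and less RNA per cell cannot be told apart.

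Between dKO and WT, 4 of 69 members passed at an adjusted p under 0.05 in edgeR's quasi-likelihood test, or 5.8%, against 5.78% of all 14994 genes tested. The J protein genes Dnajc6 and Dnajc15 were higher in dKO (2 of 69, against 3.01% of all genes), and the Hsp70 gene Hspa8 and the CCT subunit gene Cct4 were lower (2 of 69, against 2.77%). The dKO libraries lay above the WT libraries without overlap for 11 of 69 members, against 17.6% of all genes, and below them for 17, against 18.4%. Usp21 KO against WT gave 0 of 69, against 0.0133% of all genes, with 11 members at an unadjusted p under 0.05 (10.6% of all genes), 2 members (Cct3 and Cct4) called by DESeq2, which called 1.46% of all genes, and 0 by limma voom, which called 0.0133%. Here 2 of 69 members lay higher without overlap, against 8.06% of all genes. Lower without overlap were 15 of 69, of which 6 were CCT genes, a larger share than the 8.0% of all genes. Between dKO and Usp21 KO, 3 of 69 passed, or 4.35%, against 4.9% of all genes: Dnajc6, Dnajc15 and Hspa13, all higher in dKO. Of all genes, 1.7% passed as higher and 3.2% as lower in that comparison. In all 3 comparisons the share of chaperone genes that passed was therefore near or below that of all genes, which does not hold for the members lower without overlap in Usp21 KO. The comparisons share libraries, so their values are given side by side.

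In summed proliferation genes Usp21 KO replicate 2 had 794 CPM, and the other Usp21 KO libraries had 479 and 505 CPM. It enters the shared estimate of spread also for dKO against WT. Without it 14 of 70 members passed in that comparison, against 15.1% of all genes, and the 4 genes that passed with all libraries were among them. The other Usp21 KO libraries were not left out of that comparison, so whether the rise is particular to replicate 2 was not tested. With only the 6 libraries of the comparison 11 passed, or 15.9%, against 15.7% of all genes. With the replicate number as a block 2 passed (Dnajc6 and Hspa8), against 4.04% of all genes. With the block and only those 6 libraries 13 passed, or 18.8%, against 20.1% of all genes.

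**Figure D1:**
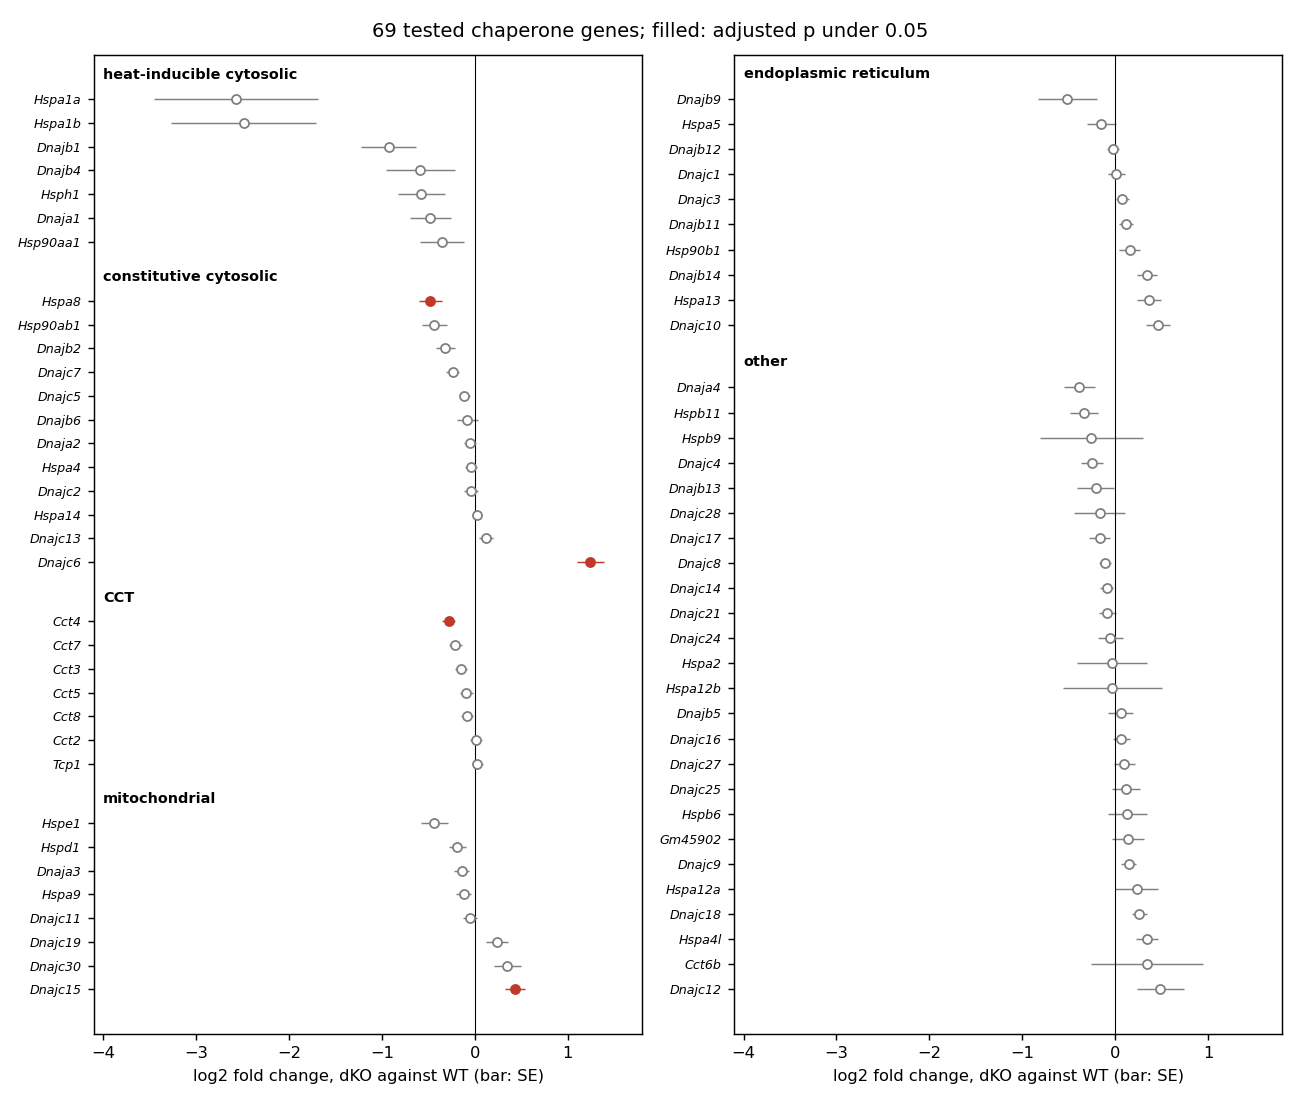
Fitted log2 fold change of dKO against WT for each of the 69 tested chaperone genes, grouped by class, with bars for the standard error and filled points for an adjusted p under 0.05. Hspa1a and Hspa1b lie farthest to the left with the widest bars, and the 4 filled points are Hspa8, Dnajc6, Cct4 and Dnajc15.

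The 7 heat-inducible cytosolic genes had the widest median spread between libraries of the classes, and 0 of them passed in any comparison. Hspa1a and Hspa1b encode the 2 nearly identical inducible Hsp70 proteins, which are low in unstressed cells. Hspa1b (chr17:34956436-34959238, mm10, minus strand) had 44.8, 15.6 and 24.5 CPM in dKO, 133, 94.9 and 26.7 CPM in Usp21 KO, and 121, 292 and 67.8 CPM in WT. Hspa1a (chr17:34969190-34972156, mm10, minus strand) had 13.5, 5.13 and 5.03 CPM in dKO, 35.8, 26.1 and 6.26 CPM in Usp21 KO, and 33.9, 92.7 and 15.4 CPM in WT. For both genes every dKO library lay below every WT library, while the Usp21 KO libraries overlapped both groups. The log2 fold change of dKO against WT was -2.49 ± 0.78 for Hspa1b (adjusted p = 0.118) and -2.57 ± 0.88 for Hspa1a (adjusted p = 0.148; SE, edgeR). DESeq2 called both, with adjusted p = 0.0135 for Hspa1b and 0.0271 for Hspa1a. Without WT replicate 2 the log2 fold changes were -1.72 for Hspa1b (adjusted p = 0.207) and -1.63 for Hspa1a (adjusted p = 0.278) in edgeR. The transcripts share 62.3% to 66.3% of their 50-base words with other genes, chiefly each other, so counts may be split between the pair. Their CPM ratio, Hspa1a over Hspa1b, stayed between 20.6% and 32.8% in the 9 libraries, which cannot show whether the 2 genes were counted separately.

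Dnajb1, the main cytosolic J protein partner of inducible Hsp70, had 183, 155 and 141 CPM in dKO, 283, 201 and 181 CPM in Usp21 KO, and 244, 451 and 213 CPM in WT. Again dKO and WT did not overlap, and the log2 fold change of -0.93 ± 0.30 did not pass (SE; edgeR adjusted p = 0.12). Without WT replicate 2 the value for Dnajb1 was -0.52. Dnajb1, Hspa1a and Hspa1b were the 3 of 7 members of the class below WT without overlap, as 18.4% of all genes were. Hsph1, an Hsp110 nucleotide exchange factor, had 298, 162 and 198 CPM in dKO, 293, 241 and 220 CPM in Usp21 KO, and 294, 421 and 266 CPM in WT, so its dKO and WT libraries overlapped. The log2 fold change of Hsph1 for dKO against WT was -0.58 ± 0.25 (SE; edgeR adjusted p = 0.229), with -0.35 when WT replicate 2 was left out and -0.86 when dKO replicate 1 was.

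Dnaja1, a farnesylated J protein of the cytosol, had 115, 86.0 and 99.5 CPM in dKO, 146, 111 and 98.2 CPM in Usp21 KO, and 119, 186 and 114 CPM in WT. Hsp90aa1, the inducible cytosolic Hsp90, had 95.5, 78.8 and 76.7 CPM in dKO, 108, 87.0 and 77.0 CPM in Usp21 KO, and 89.6, 150.1 and 81.8 CPM in WT. Dnajb4, another J protein of the cytosol, had 21.9, 18.6 and 22.1 CPM in dKO, 28.9, 13.8 and 19.2 CPM in Usp21 KO, and 20.9, 49.8 and 23.6 CPM in WT. In these 3 genes the other 8 libraries lay below WT replicate 2, and the groups overlapped. Their log2 fold changes for dKO against WT, between -0.59 and -0.36, did not pass in edgeR. Without WT replicate 2 they were -0.22 for Dnaja1, -0.09 for Dnajb4 and -0.03 for Hsp90aa1. Of the 50-base words of the transcripts, 58.5% for Hsp90aa1 and 28.8% for Dnaja1 occur in other genes, and Dnaja1 overlaps Smu1 on the opposite strand, so reads may be shared.

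**Figure D2:**
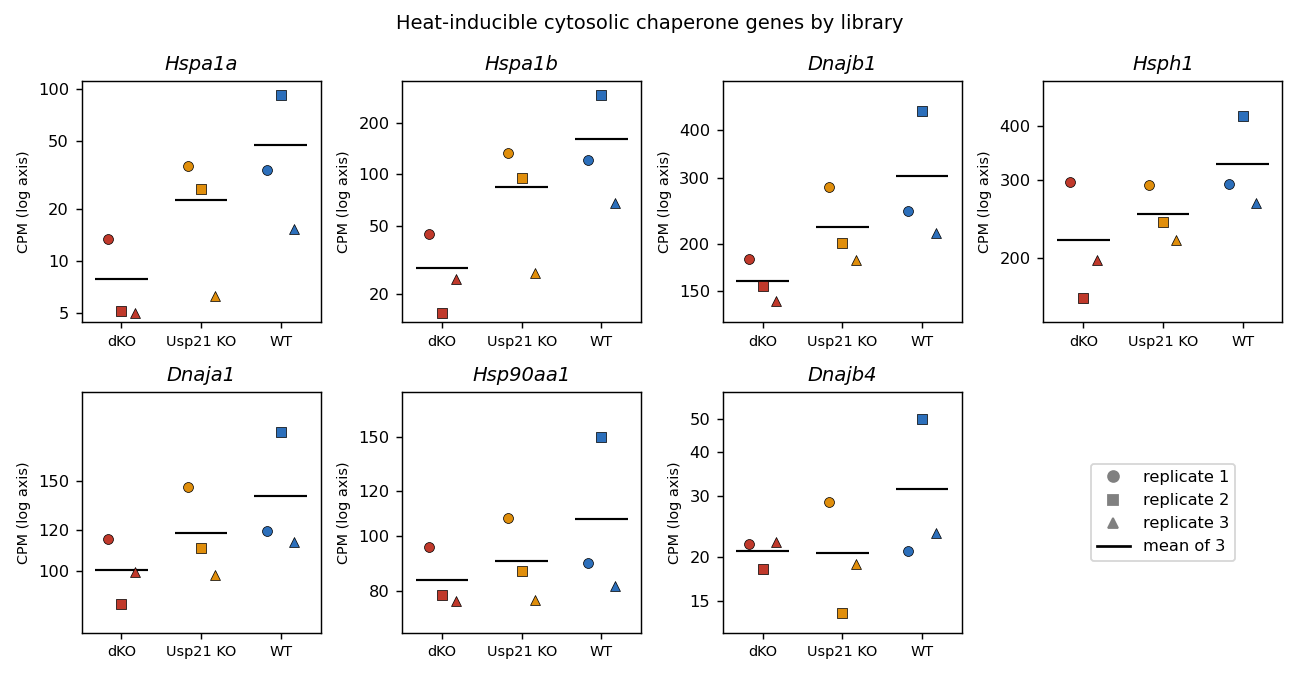
CPM on log axes for the 7 heat-inducible cytosolic genes in each library, with dKO on the left, Usp21 KO in the middle and WT on the right; symbols give the replicate number and lines the mean of 3. WT replicate 2 is the highest library in all 7 panels, and Usp21 KO replicate 1 the next in 6 of them.

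WT replicate 2 was the highest of the 9 libraries for 7 of 7 heat-inducible genes, and Usp21 KO replicate 1 was second for 6 of 7. Of all genes tested, WT replicate 2 was the highest library for 1976 of 14994, and of the tested members for 17 of 69. Those outside the heat-inducible class included Hspa8, Hspa5, Hspd1, Hspe1 and Dnajb9. The mean log2 deviation of the class from its 9-library mean was -0.12, -0.81 and -0.64 in dKO, 0.52, 0.03 and -0.54 in Usp21 KO, and 0.31, 1.27 and -0.02 in WT. The same 2 libraries stood out for 10 immediate early genes such as Fos, Jun and Egr1, which respond within minutes to activation and to the handling of cells. WT replicate 2 was the highest for 8 of these and Usp21 KO replicate 1 for the other 2. Their deviations were -0.14, 0.05 and -0.49 in dKO, 0.71, -0.36 and -0.49 in Usp21 KO, and -0.15, 1.139 and -0.27 in WT. The part of what the immediate early genes record in the chaperone values was not tested.

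The median within-group SD on the log2 scale was 0.399 for the heat-inducible class, against 0.168 for all genes tested, 0.0884 for the constitutive cytosolic class and 0.0634 for CCT. Hspa1a had an SD of 1.138, which 0.347% of tested genes exceeded, and Hspa1b one of 1.02, which 0.7% exceeded. Wide spread was not limited to this class. Hspa2, among the other members, had an SD of 0.497, and Dnajb9 of the endoplasmic reticulum had 0.423, both above the heat-inducible median. The class median log2 fold change was -0.59 for dKO against WT and -0.45 for Usp21 KO against WT, with 7 of 7 members below 0 in both. Both medians depended on WT replicate 2, without which they were -0.35 and -0.10. The median of all genes tested was -0.01 for dKO against WT and 0.01 for Usp21 KO against WT.

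**Figure D3:**
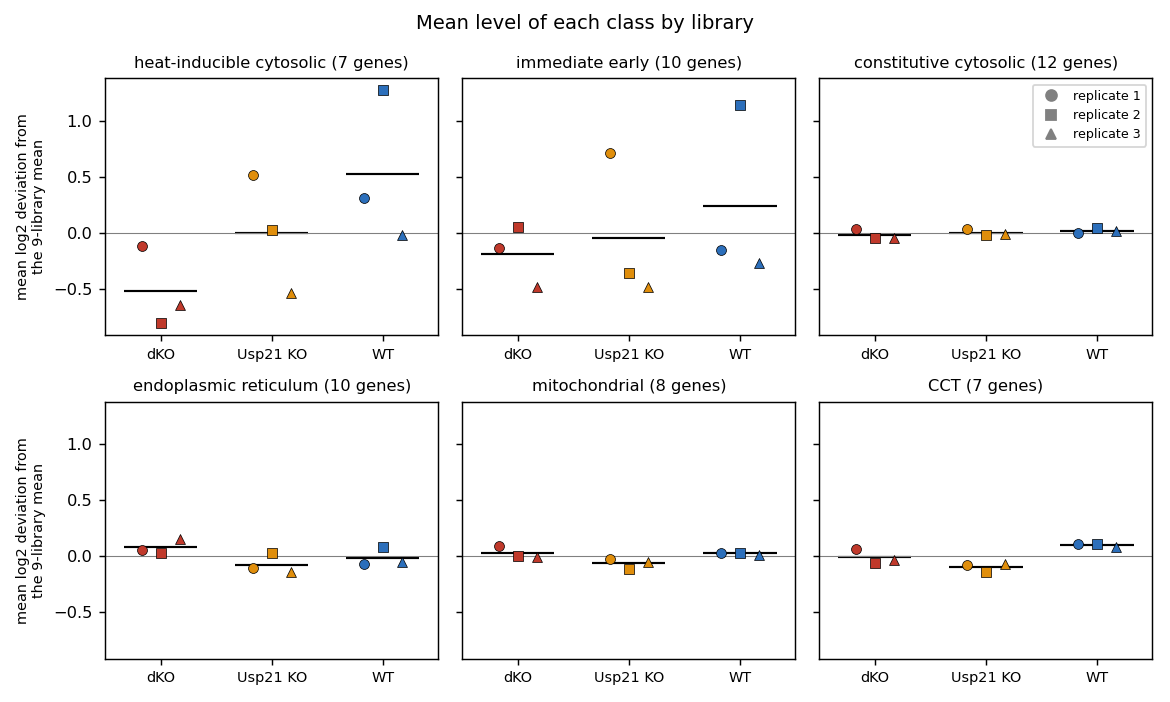
Mean log2 deviation from the 9-library mean for 5 chaperone classes and for immediate early genes, with 1 point per library and a line for the mean of each group, in the order dKO, Usp21 KO and WT. The heat-inducible and immediate early panels spread widely, with WT replicate 2 at 1.27 and 1.139, while the other 4 panels lie within 0.16 of 0.

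The 12 constitutive cytosolic genes gave 1 higher and 1 lower gene in dKO against WT, or 16.7%, against 5.78% of all genes. Their median log2 fold change was -0.07. For Usp21 KO against WT the median was -0.02 and 0 passed. Hspa8 (chr9:40800984-40810087, mm10, plus strand) encodes Hsc70, the housekeeping Hsp70 of the cytosol, which also uncoats clathrin vesicles. It had 448, 357 and 342 CPM in dKO, 447, 454 and 400 CPM in Usp21 KO, and 528, 605 and 465 CPM in WT. The dKO and Usp21 KO libraries were all below the 3 WT libraries, and dKO overlapped Usp21 KO. Hspa8 fell by 0.48 ± 0.12 on the log2 scale in dKO against WT (SE; edgeR adjusted p = 0.0474). For Usp21 KO against WT the log2 fold change was -0.30 ± 0.12 (SE; edgeR adjusted p = 0.426). The fall rested on most libraries of the comparison: without WT replicate 2 it was -0.38, without dKO replicate 3 it was -0.40, and the adjusted p ranged from 0.00517 to 0.175 over the alternatives. It passed when dKO replicate 1 or Usp21 KO replicate 2 was left out, and with the replicate number as a block, but not when any other of the 6 libraries was left out. Of the 50-base words of its transcript, 74.8% occur in other genes, mostly pseudogenes, so part of its reads may have been discarded or assigned elsewhere.

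Hsp90ab1, the constitutive Hsp90, was the most abundant member per length, at 877 CPM per kilobase of exon averaged over the 9 libraries, and it took 21.2% to 27.8% of all chaperone CPM. It had 2599, 2083 and 2003 CPM in dKO, 2890, 2663 and 2402 CPM in Usp21 KO, and 2736, 3555 and 2748 CPM in WT. Every dKO library was below every WT library, with a log2 fold change of -0.44 ± 0.13 that did not pass (SE; edgeR adjusted p = 0.0854). DESeq2 called Hsp90ab1, with adjusted p = 0.0208. WT replicate 2 was again the highest library.

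Dnajc6 showed the largest change of the members that passed. It encodes auxilin, the J protein that recruits Hsc70 to clathrin-coated vesicles and is best known from neurons. Dnajc6 (chr4:101496648-101642799, mm10, plus strand) had 14.2, 17.5 and 15.1 CPM in dKO, 7.31, 7.27 and 7.61 CPM in Usp21 KO, and 6.05, 5.90 and 7.76 CPM in WT. All 3 dKO libraries lay above the other 6, while Usp21 KO and WT overlapped. Dnajc6 was 136% higher in dKO than in WT, a log2 fold change of 1.24 ± 0.15 (SE; edgeR adjusted p = 0.00256). Against Usp21 KO it was 1.07 ± 0.15 higher on the log2 scale in dKO (SE; edgeR adjusted p = 0.00442). For Usp21 KO against WT the log2 fold change was 0.17 ± 0.15 (SE; edgeR adjusted p = 0.718). It passed in both dKO comparisons under all alternatives that were run, at 1.15 to 1.38 against WT and 0.98 to 1.17 against Usp21 KO, with adjusted p from 2.61e-11 to 0.0211 and from 1.67e-08 to 0.0301. None of its 50-base words occurred in another gene. Auxilin acts with the product of Hspa8, and the 2 transcripts differed in opposite directions between dKO and WT.

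Of the other constitutive genes, Dnajc7, a J protein with tetratricopeptide repeats that binds both Hsp70 and Hsp90, is named after its values were seen. It had 288, 281 and 270 CPM in dKO, 349, 294 and 340 CPM in Usp21 KO, and 328, 331 and 331 CPM in WT. The dKO libraries were below those of both other groups, and the log2 fold change of -0.24 ± 0.07 against WT did not pass (SE; edgeR adjusted p = 0.0885), while DESeq2 called it with adjusted p = 0.0282. Dnajc7 overlaps Cnp and Nkiras2 on the opposite strand, and the strand option of counting is not given in the sources used here. Hspa4, an Hsp110 of the cytosol also named after its values were seen, averaged 260 ± 11.2 CPM in dKO, 268 ± 12.8 CPM in Usp21 KO and 267 ± 4.66 CPM in WT (SD, n = 3 each), which differ by less than the spread between libraries.

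**Figure D4:**
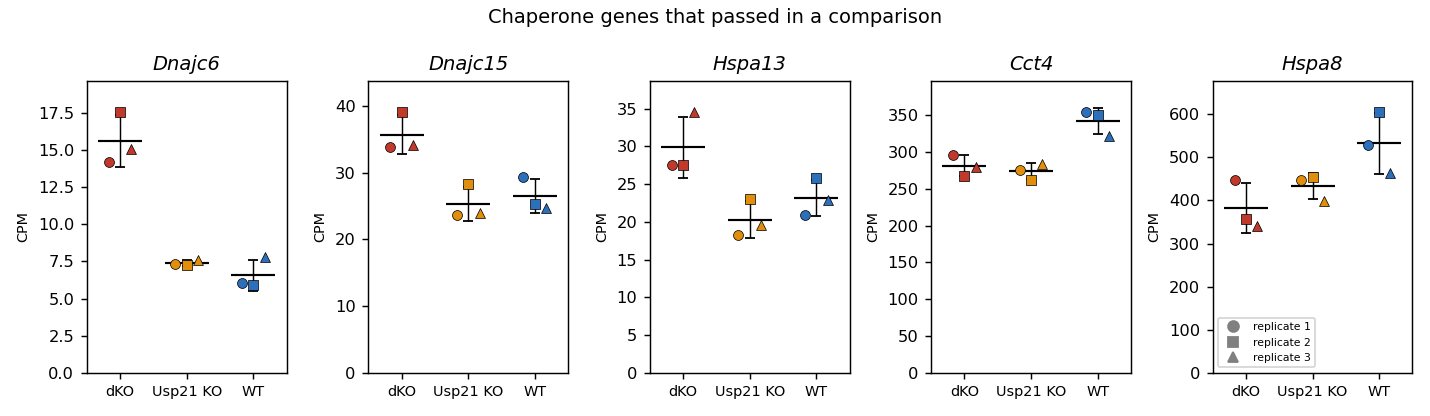
CPM per library of the 5 chaperone genes that passed in a comparison, on linear axes that start at 0, with dKO left of Usp21 KO and WT; lines are means and bars SD of 3. Dnajc6, Dnajc15 and Hspa13 are highest in the dKO libraries, while Cct4 and Hspa8 are highest in the WT libraries.

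The 10 genes of the endoplasmic reticulum gave 0 passing members in dKO against WT (median log2 fold change 0.10) and 0 in Usp21 KO against WT (-0.02). In dKO against Usp21 KO (0.13) 1 was higher, as were 1.7% of all genes. Hspa5, or BiP, the Hsp70 of this compartment and a marker of the unfolded protein response, had 698, 703 and 683 CPM in dKO, 728, 634 and 576 CPM in Usp21 KO, and 689, 986 and 634 CPM in WT. The groups overlapped, and WT replicate 2 was the highest library. The log2 fold change of dKO against WT was -0.15 ± 0.15 (SE; edgeR adjusted p = 0.615) and turned to 0.07 without WT replicate 2. Hsp90b1, the Hsp90 of the compartment, averaged 428 ± 29.3 CPM in dKO, 374 ± 67.1 CPM in Usp21 KO and 383 ± 14.1 CPM in WT (SD, n = 3 each), and did not pass.

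Hspa13, a microsomal Hsp70-like protein, had 27.5, 27.6 and 34.5 CPM in dKO, 18.3, 23.0 and 19.6 CPM in Usp21 KO, and 20.96, 25.7 and 22.9 CPM in WT. All dKO libraries were above all others. It was higher in dKO than in Usp21 KO by 0.56 ± 0.13 on the log2 scale (SE; edgeR adjusted p = 0.0378), and the difference of 0.37 ± 0.13 from WT did not pass (SE; edgeR adjusted p = 0.126). Against Usp21 KO the call was lost when any of the dKO libraries or Usp21 KO replicate 1 or 3 was left out, with values from 0.44 to 0.62. Without Usp21 KO replicate 2 the difference was 0.67 and passed. Dnajc10, or ERdj5, a disulfide reductase with a J domain named after its values were seen, had 91.8, 104 and 120.1 CPM in dKO, 69.5, 93.7 and 81.9 CPM in Usp21 KO, and 77.9, 68.7 and 82.4 CPM in WT. Its dKO libraries lay above the WT ones without overlap, and the log2 fold change of 0.46 ± 0.13 did not pass (SE; edgeR adjusted p = 0.0643), though it did in DESeq2 (adjusted p = 0.0115).

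Of 8 mitochondrial genes, 1 was higher in dKO than in WT, against 3.01% of all genes, with a class median of -0.08. In Usp21 KO against WT 0 passed, with a median of -0.06. Dnajc15, a J protein of the inner membrane linked to the presequence import motor and to respiration, had 33.9, 39.1 and 34.2 CPM in dKO, 23.7, 28.3 and 23.9 CPM in Usp21 KO, and 29.4, 25.4 and 24.8 CPM in WT. All dKO libraries exceeded all others. Dnajc15 (chr14:77820681-77875125, mm10, minus strand) rose by 0.43 ± 0.11 on the log2 scale against WT (SE; edgeR adjusted p = 0.0412) and by 0.50 ± 0.11 against Usp21 KO (SE; edgeR adjusted p = 0.0287). Leaving out any of the 6 libraries of the comparison with WT ended that call, with values of 0.36 to 0.51. Against Usp21 KO the call was lost when any dKO library or Usp21 KO replicate 1 or 3 was left out, with values of 0.43 to 0.53.

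The matrix chaperones Hspa9, Hspd1 and Hspe1 did not pass in edgeR with all libraries. Hspa9, the mitochondrial Hsp70, averaged 183 ± 7.87 CPM in dKO, 201 ± 19.97 CPM in Usp21 KO and 199 ± 9.29 CPM in WT (SD, n = 3 each). Hspd1, the Hsp60 chaperonin, had 97.1, 75.1 and 82.8 CPM in dKO, 91.2, 88.0 and 83.6 CPM in Usp21 KO, and 92.1, 104 and 94.4 CPM in WT. Hspe1, the lid of that chaperonin, had 22.4, 18.2 and 18.9 CPM in dKO, 19.4, 15.8 and 20.5 CPM in Usp21 KO, and 26.5, 31.3 and 22.8 CPM in WT. Hspe1 was thus below WT in all 6 knockout libraries, at a log2 fold change of -0.43 ± 0.14 in dKO (SE; edgeR adjusted p = 0.106) and -0.53 ± 0.14 in Usp21 KO (SE; edgeR adjusted p = 0.299). For dKO against WT it passed in 4 of 15 alternatives, with values from -0.54 to -0.31. Its highest library was WT replicate 2. Hspd1 and Hspe1 overlap on opposite strands, and 44.8% of the 50-base words of each occur in other genes.

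The CCT subunits form a ring of 8 different proteins present in equal number, and 7 of their genes were members. The table gives no symbol for the row of the eighth, Cct6a, which is shown beside them. Their levels lay between 41.3 and 172 CPM per kilobase of exon. Cct4 (chr11:22990519-23003780, mm10, plus strand) had 296, 267 and 280 CPM in dKO, 276, 263 and 284 CPM in Usp21 KO, and 354, 351 and 321 CPM in WT. Both knockout groups were below WT in every library and overlapped each other. Cct4 fell by 0.28 ± 0.07 on the log2 scale in dKO against WT (SE; edgeR adjusted p = 0.0399). In Usp21 KO the difference from WT was -0.32 ± 0.07, which did not pass over all genes (SE; edgeR adjusted p = 0.244), while DESeq2 called it with adjusted p = 0.00331. The values in dKO and Usp21 KO differed by 0.04 ± 0.07 (SE; edgeR adjusted p = 0.794). Leaving out any of the 6 libraries of dKO against WT ended the call for Cct4, with values of -0.33 to -0.25. With library totals as the only scaling it was -0.18 and did not pass.

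In Usp21 KO against WT, 7 of 7 CCT members had a log2 fold change below 0, with a median of -0.19. In 6 of 7 the Usp21 KO libraries lay below the WT libraries without overlap, as for 8.0% of all genes, and 0 passed. Cct3 had 250.2, 236 and 247 CPM in Usp21 KO and 287, 289 and 284 CPM in WT, a log2 fold change of -0.23 ± 0.06 (SE; edgeR adjusted p = 0.302). Cct2 had 429, 391.7 and 403 CPM in Usp21 KO and 445, 453 and 465 CPM in WT, and Cct5 had 354, 364 and 373 CPM in Usp21 KO and 423, 410 and 413 CPM in WT. Cct6a averaged 169 ± 4.57 CPM in Usp21 KO and 197 ± 7.63 CPM in WT (SD, n = 3 each). Tcp1, the subunit with the value nearest 0, averaged 205 ± 10.2 CPM in Usp21 KO and 218 ± 5.33 CPM in WT (SD, n = 3 each), and its libraries overlapped. Tcp1 overlaps Mrpl18 and Cct8 overlaps Usp16 on the opposite strand, and 22.2% of the 50-base words of Tcp1 occur in other genes.

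In dKO against WT the log2 fold changes of the CCT members ran from -0.28 for Cct4 to 0.03 for Tcp1, and in Usp21 KO against WT from -0.32 to -0.09. Cct2 averaged 458 ± 19.5 CPM in dKO and 455 ± 10.4 CPM in WT, and Tcp1 222 ± 6.97 CPM in dKO and 218 ± 5.33 CPM in WT (SD, n = 3 each). The log2 fold changes were 0.01 ± 0.06 for Cct2, 0.03 ± 0.06 for Tcp1, -0.15 ± 0.06 for Cct3 and -0.21 ± 0.07 for Cct7 (SE). In 3 of 7 members (Cct3, Cct4 and Cct7) the dKO libraries lay below the WT libraries without overlap, as for 18.4% of all genes. The class median was -0.09 for dKO against WT, and 0.01 with library totals as the only scaling, under which the median of all genes moved to 0.09. For dKO against Usp21 KO 7 of 7 were above 0, with a median of 0.10 and 0 passing.

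**Figure D5:**
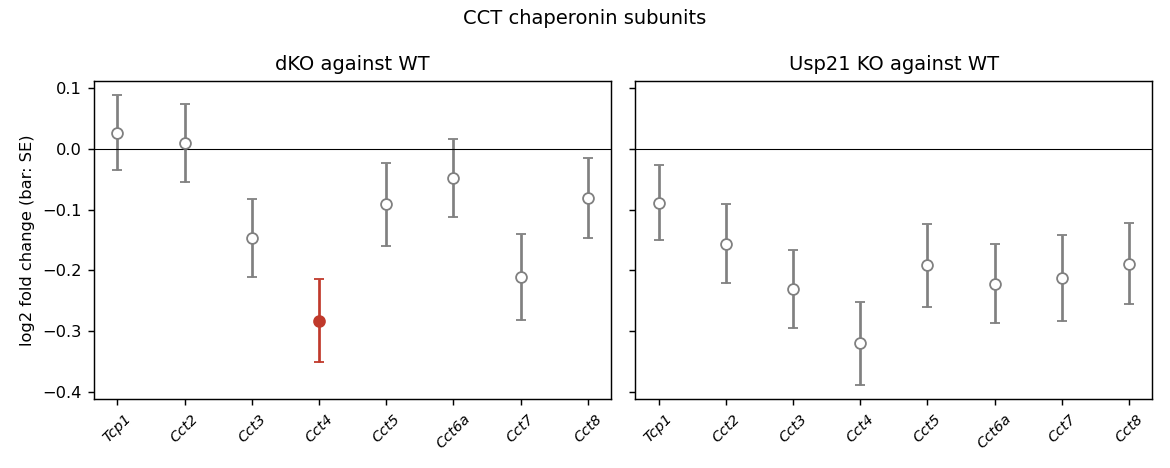
Fitted log2 fold changes of the CCT subunit genes, with bars for the standard error, for dKO against WT on the left and Usp21 KO against WT on the right; the filled point passed at an adjusted p under 0.05. All 8 points lie below 0 on the right, from -0.32 for Cct4 to -0.09 for Tcp1, whereas on the left they run from -0.28 to 0.03, Cct2 and Tcp1 fall above 0, and with library totals as the only scaling Cct5, Cct6a and Cct8 do so too.

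The remaining 25 tested members include small heat shock proteins, testis-type Hsp70 genes and J proteins of other functions, and 0 passed in any comparison. Their log2 fold changes ran from -0.39 to 0.49 in dKO against WT, from -0.46 to 0.72 in Usp21 KO against WT and from -0.53 to 0.48 in dKO against Usp21 KO. Per length the highest were Dnajc8, a J protein of the spliceosome, and Dnajc9, a histone chaperone of dividing cells. Dnajc8 averaged 132 ± 3.15 CPM in dKO, 130 ± 8.13 CPM in Usp21 KO and 143 ± 2.501 CPM in WT, and Dnajc9 averaged 90.5 ± 5.67 CPM in dKO, 82.3 ± 6.11 CPM in Usp21 KO and 82.0 ± 4.71 CPM in WT (SD, n = 3 each).

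Proteins that work with the chaperones were followed in 4 further lists. Of 25 heat shock factors and cytosolic co-chaperones, 1 was higher and 1 lower in dKO than in WT, or 8.0%, against 5.78% of all genes. The median log2 fold change was -0.17. Bag2, a nucleotide exchange factor that inhibits the ubiquitin ligase CHIP, had 3.56, 3.57 and 2.94 CPM in dKO, 1.88, 2.68 and 2.03 CPM in Usp21 KO, and 1.33, 1.77 and 2.00 CPM in WT. The dKO libraries were above all others, and Bag2 rose by 0.97 ± 0.25 on the log2 scale against WT (SE; edgeR adjusted p = 0.0478). Tomm34, which holds mitochondrial precursors with Hsp70 and Hsp90, had 132, 127 and 119.9 CPM in dKO, 171, 146 and 148 CPM in Usp21 KO, and 157, 152 and 154 CPM in WT. Tomm34 fell by 0.29 ± 0.07 on the log2 scale against WT (SE; edgeR adjusted p = 0.0474) and by 0.30 ± 0.07 against Usp21 KO (SE; edgeR adjusted p = 0.0497).

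Of 9 prefoldin and CCT cofactor genes, 1 was lower in dKO than in WT, against 2.77% of all genes. Pfdn5, a subunit of prefoldin, which passes nascent actin and tubulin to CCT, had 153, 137 and 126 CPM in dKO, 138, 130.2 and 154 CPM in Usp21 KO, and 199, 178 and 172 CPM in WT. As for Cct4, both knockout groups lay below WT without overlap. Pfdn5 fell by 0.40 ± 0.09 on the log2 scale in dKO against WT (SE; edgeR adjusted p = 0.035), and in Usp21 KO the difference from WT was -0.38 ± 0.09 (SE; edgeR adjusted p = 0.275). Of 16 endoplasmic reticulum partners and 9 mitochondrial partners, 0 passed in any comparison. The smallest adjusted p in dKO against WT was 0.106 for Sdf2l1, a BiP co-factor, and 0.185 for Grpel1, the mitochondrial nucleotide exchange factor. In Usp21 KO against WT 0 of the 59 partner genes passed, and the smallest adjusted p was 0.262, for St13, which averaged 188 ± 5.74 CPM in Usp21 KO and 226 ± 2.46 CPM in WT (SD, n = 3 each). Leaving out a library of the comparison ended the call of Bag2 in 6 of 6 cases, with values of 0.83 to 1.10, of Tomm34 against WT in 6 of 6 (-0.33 to -0.25) and of Pfdn5 in 5 of 6 (-0.44 to -0.33), and the call of Tomm34 against Usp21 KO was lost in 5 of 6 (-0.33 to -0.22). Over all alternatives run, the call against WT was lost in 8 of 15 for Hspa8, Cct4, Bag2 and Tomm34 and in 7 of 15 for Dnajc15 and Pfdn5. The call against Usp21 KO was lost in 6 of 13 for Dnajc15 and Hspa13 and in 10 of 13 for Tomm34.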

How the data were processed

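RNA of sorted spleen Treg cells was sequenced in 9 libraries, 3 per genotype. As deposited, the table gives unnormalized read counts for each Ensembl gene in each library, and 0 of its columns were unmapped. Per the submitters' processing notes, the tools were cutadapt 1.13, STAR, HTSeq 0.6.1p1 and, for a step not named, DESeq2 1.14.1, and the build was mm10. Neither their order nor the annotation or strand setting of the counting is given in the sources used here. Coordinates are from GENCODE M21, which names 1 of 2 rows with the symbol Hspa14 Gm45902.

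All genes kept by filterByExpr (14994) were fitted with edgeR 4.0.16 in R 4.3.3 (TMM, robust glmQLFit, glmQLFTest, group as the sole term, Benjamini-Hochberg over all genes, adjusted p under 0.05). Levels are CPM on TMM-scaled library sizes, and class deviations use log2(CPM + 0.5). Libraries held between 18067377 and 40334577 counts, and precision rests on 3 libraries a group. Alternatives were median-ratio size factors, library totals, no filter, DESeq2 1.42.0, limma 3.58.1 voom, 6 libraries only, a replicate block and leaving out each library of the comparison in turn. For dKO against WT, leaving out Usp21 KO replicate 2 and the block with only 6 libraries were added.

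Same-numbered dKO and WT libraries deviated together across genes (r = 0.124, 0.259 and 0.118), which met the rule used for pairing, although no label states a pairing. The other comparisons did not meet it, with r of -0.264, -0.268 and 0.161 for Usp21 KO and WT. These lie as far from 0, so values of this size cannot settle whether libraries are paired. The main fit ignored the numbers, and the replicate block is given as an alternative. No library pair was a duplicate (lowest chi-square per degree of freedom 5.08). Named were Hspa8, Cct4, the heat-inducible class, members that passed, the 3 of smallest p where 0 passed, 2 per class with the highest level per length, and partner genes that passed or had the smallest p. Members, classes and lists were chosen with earlier results of these data known.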

Additional observations from a re-analysis of the deposited data

How the results depend on the processing

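Of 963 values of named genes under an alternative, 856 kept their direction and their side of the threshold, 68 lost the call, 24 gained one and 15 turned direction. Dnajc6 was the only chaperone gene called under every alternative run in both dKO comparisons. The cause of each change below was not tested. Leaving out a library or fitting 6 libraries lowers the number of samples, and under both the number called rose in some fits and fell in others. For dKO against WT the 4 members called became 2 with the replicate block (4.04% of all genes called), 13 with the replicate block and only 6 libraries (20.1%; an alternative chosen after seeing the data), 11 with DESeq2 (10.5%) and 11 with only 6 libraries (15.7%). Leaving out 1 library gave 1 to 14 (1.24% to 15.1%), where 14 is without Usp21 KO replicate 2, a library outside the comparison and likewise left out after seeing the data. For Usp21 KO against WT DESeq2 called 2 (1.46%). For dKO against Usp21 KO the 3 called became 5 with library totals (6.24%), 6 with DESeq2 (11.5%), 1 with only 6 libraries (1.02%), and 1 to 10 when a library was left out (up to 14.1%). The replicate block changed no other count.

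With library totals the split of all genes in dKO against WT was 807 higher and 236 lower, against 451 and 415 with TMM, and in dKO against Usp21 KO it was 654 and 281, against 255 and 480. Class medians for dKO against WT then stood at 0.0077 for CCT, 0.032 for constitutive cytosolic, 0.20 for endoplasmic reticulum and 0.015 for mitochondrial genes, and Cct5 (0.0077), Cct8 (0.019) and Cct6a (0.051) turned positive. For dKO against Usp21 KO the medians were 0.19, -0.021, 0.23 and 0.12 in the same order of classes.

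Leaving out 1 library in dKO against WT moved the CCT median between -0.16 and -0.056, Cct2 between -0.021 and 0.039, and Hspa5 between -0.27 and 0.071. In Usp21 KO against WT the mitochondrial median ran from -0.093 to -0.0083, Dnaja1 from -0.42 to 0.023, Dnajc15 from -0.16 to 0.011 and Hsp90aa1 from -0.40 to 0.083. In dKO against Usp21 KO the CCT median ran from 0.036 to 0.13, the constitutive median from -0.15 to -0.074, the mitochondrial median from -0.044 to 0.054, Cct4 from -0.0014 to 0.072, Dnajb4 from -0.20 to 0.34 and Hsp90aa1 from -0.22 to 0.029. With 3 libraries a group and the spread of the heat-inducible class, the changes in Hspa1a and Hspa1b did not pass over all genes in edgeR's test. For dKO against WT the unadjusted edgeR p was 0.0146 for Hspa1b and 0.0221 for Hspa1a, and the adjusted p was 0.118 and 0.148.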
